A study of Mus musculus with 4 samples.

Results

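The monocyte chemokine genes Ccl2, Ccl7, Ccl8 and Ccl12 and the receptor gene Ccr2 were taken by symbol from the 27998 features of 4 single-cell RNA libraries, so the set is 5 genes of 27998. The libraries came from orthotopic syngeneic mammary tumours of the MT4788 line in wild-type FVB mice, collected on day 4, with 1 library for each of 4 treatments: the control received Saline and PBS, the phenformin group Saline plus Phenformin, the poly I:C group PBS plus Poly I:C, and the combination group both Poly I:C and Phenformin. Phenformin is a biguanide that inhibits mitochondrial respiration, and poly I:C mimics viral double-stranded RNA and sets off innate RNA sensing. Leukocytes were enriched with CD45 beads, with a stated share above 90% of CD31-EpCam-CD45+ cells, and 10000 cells per condition were loaded for 3′ sequencing; the number of animals behind each library is not given in the sources used here. With 1 library per treatment no difference between treatments could be tested, and every interval below, at the 95% level, covers counting error only.

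Classical monocytes leave the bone marrow and enter inflamed tissue and tumours through Ccr2, a chemokine receptor whose expression declines as these cells mature into macrophages and is also carried by subsets of T cells, NK cells and dendritic cells. Its ligands in the mouse include the products of Ccl2 (MCP-1), Ccl7 (MCP-3) and Ccl12 (MCP-5), which are made by macrophages and by stromal cells. Ccl8 (MCP-2) belongs to the same cluster of genes, but its mouse product acts mainly on Ccr8.

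The 4 ligand genes lie within 81229 bases on the + strand of chromosome 11 (GRCm38, GENCODE vM21 gene bodies). Ccl2 is at chr11:82035571-82037453, Ccl7 at chr11:82045712-82047525, Ccl12 at chr11:82101845-82103400 and Ccl8 at chr11:82115185-82116799. Ccl2 and Ccl7 are 8258 bases apart, Ccl12 and Ccl8 are 11784 bases apart, and 54319 bases lie between the pairs. Ccr2 is on chromosome 9, at chr9:124101950-124113557 on the + strand. RefSeq promoter entries (GRCm38.p6, 250 bases before to 50 after the start) were matched for 3 of the 5 genes, namely Ccl8, Ccl12 and Ccr2. The 250 bases before the start are printed for the neighbours Ccl8 and Ccl12, since the cells of 1 gate held over 90% of the transcripts of both, at chr11:82114935-82115184 and chr11:82101595-82101844, both on the + strand and 5′ to 3′, with capitals for the TATA box.
Ccl8: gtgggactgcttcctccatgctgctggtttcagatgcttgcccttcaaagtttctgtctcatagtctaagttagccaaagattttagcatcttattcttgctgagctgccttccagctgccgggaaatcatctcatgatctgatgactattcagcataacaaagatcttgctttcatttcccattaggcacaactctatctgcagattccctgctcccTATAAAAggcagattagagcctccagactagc
Ccl12: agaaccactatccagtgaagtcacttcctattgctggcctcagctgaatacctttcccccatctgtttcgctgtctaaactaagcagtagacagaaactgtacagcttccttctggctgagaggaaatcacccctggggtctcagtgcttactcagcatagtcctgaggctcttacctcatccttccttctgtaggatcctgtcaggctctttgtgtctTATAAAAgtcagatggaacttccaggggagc
The letters TATAAAA, searched on both strands, begin 32 bases before the start in Ccl8 and 31 bases before it in Ccl12, and they occur in 5.78% of the 27025 promoters of that length. An NF-kB motif (in 5.52% of promoters), an interferon-stimulated response element (3.49%), the letters TTCNNNGAA bound by STAT factors (8.47%) and the AP-1 letters TGANTCA (7.93%), all searched on both strands, were found in none of the 3 windows, and the window of Ccr2 held no TATAAAA either. Nothing about the factors follows from letters that are absent from so short a window.

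The deposited matrices held 7309, 6539, 7668 and 9303 barcodes in control, phenformin, poly I:C and combination, of which 6095, 5453, 6619 and 8268 passed a filter of at least 200 genes and under 20% mitochondrial UMIs. A UMI is a tag that marks 1 captured transcript molecule. The cells kept held 57332308 to 76070132 UMIs per library, with medians of 5902 to 8430 per cell, and 0.566 to 0.691% of the barcodes of a library also occurred in another one. Cells were gated on raw UMIs into macrophage (Csf1r, Cd68 and Adgre1 at least 3 together), monocyte (Ly6c2 at least 2, the 3 C1q genes under 5), dendritic (Flt3 at least 1), T (the 3 Cd3 genes at least 2) and fibroblast (Col1a1 and Col3a1 at least 10, Ptprc 0). These gates overlap and are not exclusive. The macrophage gate held 2030, 2268, 2641 and 2759 cells, the monocyte gate 1093, 1062, 1391 and 1409, the dendritic gate 300, 269, 203 and 218, the T gate 1626, 1493, 2159 and 3064, and the fibroblast gate 15, 12, 41 and 40. Levels are in CPM, the UMIs of a gene per 1000000 UMIs of the same cells, and since capture differs between genes they are compared within a gene.

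The gate labels were compared with marker lists. These lists share C1qa, C1qb, C1qc and Ly6c2 with the monocyte gate, and Col1a1 and Col3a1 with the fibroblast gate. They share Cd3d, Cd3e and Cd3g with the T gate. Part of each such sum, such as the low macrophage marker sum of the monocyte gate, was therefore set by the gates. The 8 macrophage markers summed to 8720, 11129, 22390 and 21521 CPM in the macrophage gate against 883 to 1345 CPM in the monocyte gate. The 7 fibroblast markers summed to 20776 to 37097 CPM in the fibroblast gate, so stromal cells had passed the CD45 enrichment. The monocyte gate went partly against its label: its 6 monocyte markers summed to 4305 to 5602 CPM, but 309, 274, 602 and 656 of its cells also passed the T gate, and its 7 T cell markers summed to 890, 780, 1346 and 1662 CPM against 2558 to 2995 CPM in the T gate. Further overlaps were with the macrophage gate, which 478, 552, 579 and 485 of its cells also passed, and with the dendritic gate (154, 140, 118 and 130 cells). Of all its cells 78, 82.9, 85.1 and 84% passed another of the 5 gates. Its 5 neutrophil markers summed to 326, 211, 1055 and 3404 CPM, highest in combination. The part of these markers and overlaps in the values of this gate was not tested. Values of this gate are therefore also given without the T gate cells, an alternative chosen after the data were seen. Those values still include cells that passed the macrophage or dendritic gate.

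Ccr2, the receptor, was lower in macrophage gate cells of all 3 treated libraries than in control. Its level there was 150 CPM in control, 98.2 in phenformin, 40.9 in poly I:C and 60 in combination. The order was control, phenformin, combination, poly I:C, and the counting intervals of no neighbours in it overlapped (control 145 to 155, phenformin 94.8 to 102, combination 57.4 to 62.8, poly I:C 38.9 to 43 CPM). Against control the ratio was 0.657 (0.625 to 0.69) in phenformin, 0.273 (0.257 to 0.291) in poly I:C and 0.401 (0.379 to 0.425) in combination. On the log2 scale Ccr2 was the 7th lowest of 3063 genes compared in phenformin, the 5th lowest of 3138 in poly I:C and the 21st lowest of 3183 in combination. Genes compared had at least 50 CPM and 30 UMIs in the higher library, and those at least 1.5-fold lower than control made up 0.261% in phenformin, 4.3% in poly I:C and 5.03% in combination. Ccr2 was 1 of 5 members past that fold in each case, and the single member in that direction. In phenformin it was no longer past the fold with TMM scaling (0.684), as a mean over cells (0.684) or with doubled gate minimums (0.702). With TMM scaling, which centres on the bulk of genes, the split of all genes past the fold moved from 15 higher and 8 lower to 19 and 5 in phenformin and from 104 and 135 to 139 and 83 in poly I:C.

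The combination library stood above poly I:C alone in Ccr2. The ratio of the combination to poly I:C was 1.47 (1.37 to 1.57) in the macrophage gate, the 35th highest of 3029 genes and just under the 1.5-fold limit, which 1.06% of genes passed in the higher and 1.52% in the lower direction. Against phenformin alone the combination was at 0.611 (0.577 to 0.647), past the limit in the direction in which 4.49% of genes were; 3.69% were as much higher, none of them a member. Beyond the product of the single treatments, the combination was higher by a log2 value of 1.16 (1.04 to 1.28) in the macrophage gate, 0.95 (0.81 to 1.09) in the monocyte gate, 0.58 (0.25 to 0.92) in the dendritic gate and 0.53 (0.41 to 0.64) in the T gate. In each of these 4 gates the level under both treatments was therefore above what multiplying the 2 separate ratios gives.

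**Figure D1:**
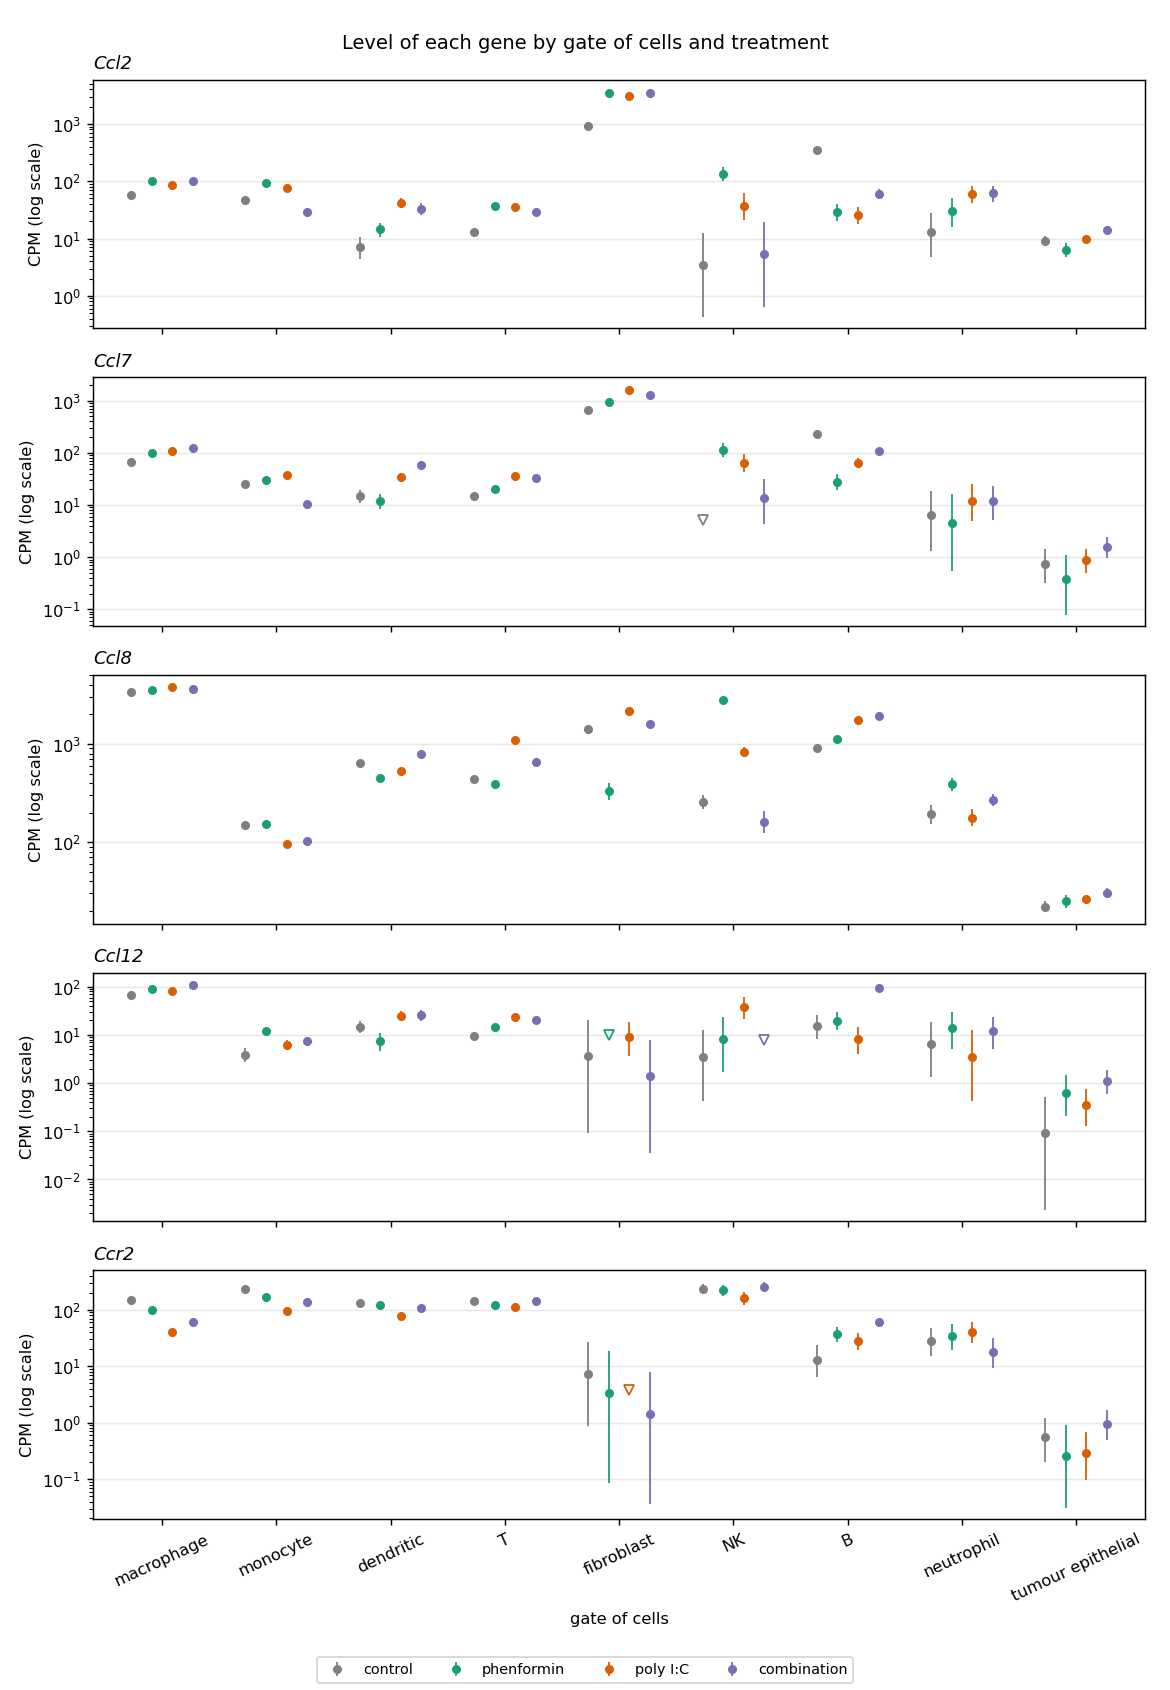
CPM (log scale) of each gene in 9 gates of cells, with 1 point per library and exact Poisson 95% intervals for counting error; open triangles mark 0 UMIs and are drawn at the floor of 3 counts. Ccr2 in the macrophage gate is at 150 CPM in control and 40.9 in poly I:C, while Ccl2 and Ccl7 are highest in the fibroblast gate.

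The same order held within the monocyte gate. Ccr2 was at 230 CPM in control, 172 in phenformin, 95.7 in poly I:C and 138 in combination, with ratios over control of 0.746 (0.7 to 0.794), 0.416 (0.388 to 0.446) and 0.6 (0.562 to 0.64). Ccr2 was past the 1.5-fold limit in poly I:C and combination, where 8.22% and 6.9% of the genes compared were as much lower, and not in phenformin, where 0.555% were. TMM scaling moved the split of genes past the fold in this gate from 33 higher and 18 lower to 48 and 11 in phenformin, from 99 and 271 to 174 and 116 in poly I:C, and from 108 and 229 to 162 and 147 in combination. Without the T gate cells the levels were 278, 192, 73.7 and 127 CPM and the ratios 0.689, 0.265 and 0.456. In the cells that passed both the monocyte and the T gate the levels were 145, 124, 123 and 150 CPM, so the treated libraries were within 0.849 to 1.03 of control there, and the difference lay in the cells outside the T gate.

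Subdivisions of the macrophage gate all gave Ccr2 levels below control in every treated library. In cells with no UMI of Ly6c2, a surface antigen gene of classical monocytes, Ccr2 was at 113, 70.6, 23.9 and 44.3 CPM, and in cells with at least 1 it was at 194, 131, 54.7 and 80.5 CPM. Cells with fewer than 20 UMIs of C1qa, C1qb and C1qc, which encode complement C1q and mark mature macrophages, had 219, 142, 68.7 and 123 CPM. Cells with 20 or more had 89.9, 62.4, 31.4 and 43 CPM. Ccr2 was thus lower in the C1q-high than in the C1q-low cells of each library, and the ratios of poly I:C over control were 0.313 and 0.35 in the 2 strata against 0.273 in the whole gate. The C1q-high share of the gate was 46.4% in control, 46.8% in phenformin, 66.8% in poly I:C and 72.2% in combination, and its part in the whole-gate ratio was not tested beyond these strata. The cut is on raw UMIs, while C1qa in this gate was at 2493, 2740, 4689 and 6134 CPM and median UMIs per cell ranged from 9337 to 12136. A stratum, here and for the ligands below, need not hold the same kinds of cells in each library, and this was not tested.

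Arg1, the gene of arginase-1, and Mmp12, that of macrophage elastase, divided the gate in the same way. Macrophage gate cells with at least 3 Arg1 UMIs had Ccr2 at 54, 32.4, 18.8 and 21.9 CPM, and cells without Arg1 at 188, 137, 52.5 and 75.6 CPM. Cells with Mmp12 had 113, 70.3, 29.8 and 55.7 CPM and cells without it 180, 121, 49.5 and 61.9 CPM. In each library the cells with Arg1 or Mmp12 were the lower ones, and in each of these 4 subdivisions poly I:C was the lowest library.

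**Figure D2:**
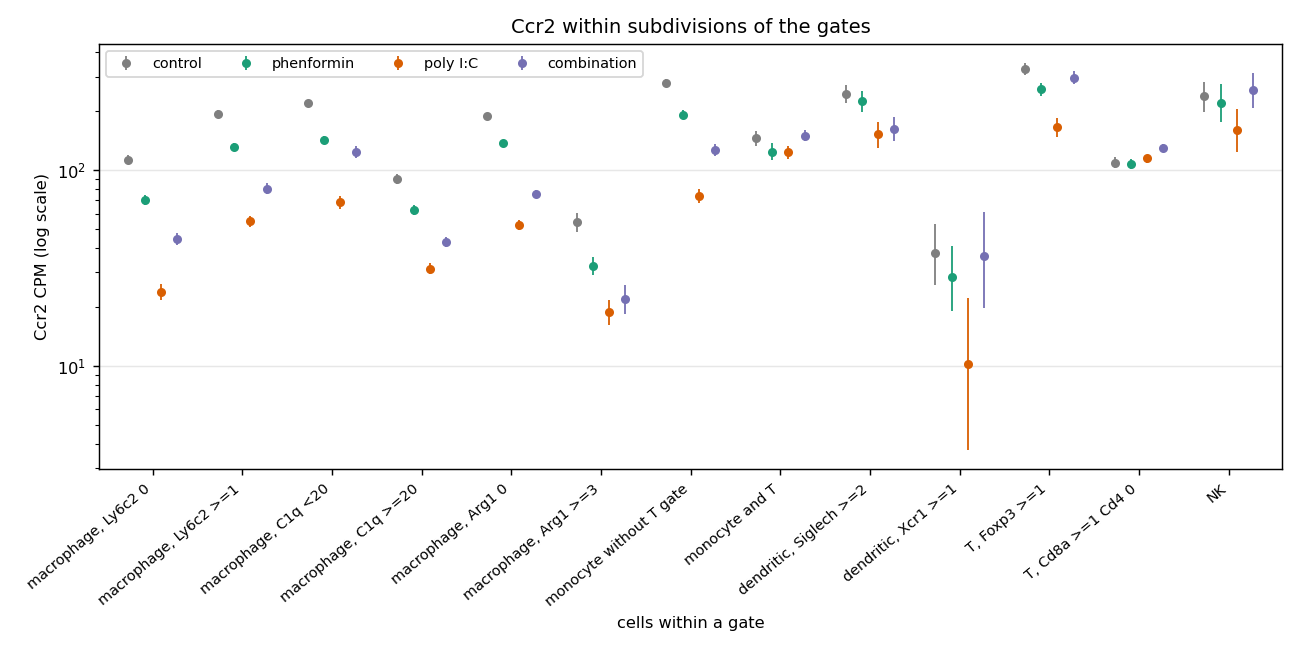
Ccr2 CPM (log scale) in subdivisions of the gates, 1 point per library with exact Poisson 95% intervals for counting error. Poly I:C is the lowest library in all 6 macrophage subdivisions shown, while the CD8 T cells lie between 107 and 130 CPM in all 4 libraries.

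Ccr2 was also found in T, NK and dendritic cells, where the ratios over control in the whole gates were 0.583 to 1.08. In the T gate its level was 143, 124, 114 and 142 CPM, with ratios over control of 0.865, 0.794 and 0.989, none past the 1.5-fold limit, which 0.666%, 6.97% and 3.87% of genes passed in the lower and 0.508%, 5.58% and 2.51% in the higher direction. Regulatory T cells, taken as T gate cells with Foxp3, had 328, 259, 166 and 297 CPM, so poly I:C was at 0.505 (0.443 to 0.575) of control and combination at 0.904 (0.815 to 1). T gate cells with Cd8a and no Cd4 had 109, 107, 115 and 130 CPM, and T gate cells with Cd4 but neither Cd8a nor Foxp3 had 90.1, 56.2, 61.1 and 123 CPM. The Foxp3 and Cd4 cells thus had their 2 lowest values in the single treatments, whereas the CD8 cells did not.

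NK gate cells (Ncr1 and Klrb1c at least 2 together, no Cd3) had Ccr2 at 238, 221, 160 and 257 CPM from 106, 66, 62 and 66 cells. In the dendritic gate the level was 134, 121, 78.3 and 106 CPM, and poly I:C, at 0.583 of control, was past the 1.5-fold limit in that gate, where 7.45% of genes were as much lower and 4.7% as much higher. Dendritic gate cells with at least 2 UMIs of Siglech, a marker of plasmacytoid dendritic cells, had 245, 225, 152 and 162 CPM. Cells with Xcr1, a marker of type 1 conventional dendritic cells, had 37.8, 28.4, 10.2 and 36.3 CPM. Migratory cells, gated on Ccr7 and Fscn1, had 41.9, 52.5, 35.6 and 50.3 CPM. The plasmacytoid cells were therefore above the Xcr1 and the migratory cells in each library, and the migratory cells, with 28 to 55 UMIs per library, had intervals of the ratio over control that included 1.

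Free RNA in droplets can give a UMI to a cell that does not express the gene. After every cell was thinned to 2000 UMIs, which left out 8.61 to 13.6% of the cells kept, Ccr2 was found in 23, 15.8, 7.18 and 10.8% of macrophage gate cells and in 33.5, 26.6, 16.9 and 21.3% of monocyte gate cells. The unthinned shares were 47.6, 42.5, 25.4 and 27.5% and 58.6, 55, 42.6 and 43%. Tumour epithelial gate cells (keratin genes, no Ptprc) had a Ccr2 UMI in 0.791 to 2.42% before thinning and in at most 0.239% after it, so Ccr2 in the myeloid gates stood above this background in every library. The order of the 4 libraries was the same in shares as in CPM.

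In the whole libraries, where fewer cells of a type and less RNA per cell cannot be told apart, Ccr2 was at 116, 91.9, 49.7 and 76.6 CPM. Cells that passed the macrophage gate alone held 28.5, 30.3, 17.6 and 17.8% of all Ccr2 UMIs, and cells that passed the T gate alone held 22.9, 24.9, 31.8 and 37.8%. With all cells that also passed another gate, the macrophage gate held 50.6, 55.1, 40.4 and 34.6%. Among cells of 1 gate, T cells thus held more of the Ccr2 transcripts than macrophages in both libraries with poly I:C, and less in control and phenformin.

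**Figure D3:**
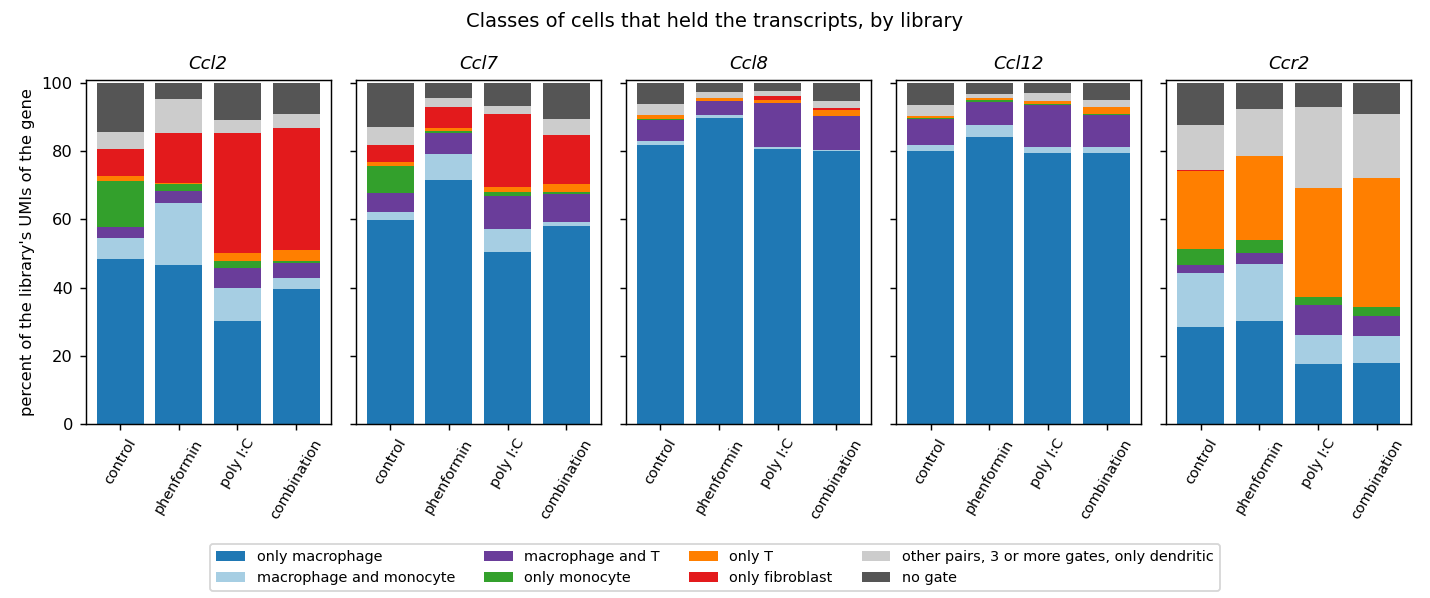
Percent of each library's UMIs of a gene (linear axis) held by classes of cells that passed 1 gate, pairs of gates or none of the 5. Ccl8 and Ccl12 came almost wholly from macrophage gate cells, Ccl2 and Ccl7 also from fibroblasts, and Ccr2 from both macrophage and T cells.

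Ccl2 and Ccl7, the adjacent ligand genes, were higher in macrophage gate cells of all 3 treated libraries than in control. Ccl2 was at 58.1, 102, 86.6 and 99.1 CPM, with ratios over control of 1.75 (1.64 to 1.87) in phenformin, 1.49 (1.4 to 1.59) in poly I:C and 1.7 (1.6 to 1.82) in combination. Ccl7 was at 67.8, 100, 107 and 124 CPM, with ratios of 1.48 (1.39 to 1.57), 1.58 (1.49 to 1.68) and 1.82 (1.72 to 1.94). For both genes control was the lowest library, and for Ccl2 the intervals of phenformin (98.3 to 105 CPM) and combination (95.6 to 103 CPM) overlapped. Of the 5 members, Ccl2 alone was at least 1.5-fold higher in phenformin, where 0.49% of genes were, Ccl7 alone in poly I:C (3.31%), and Ccl2, Ccl7 and Ccl12 in combination (4.3%). Ccl2 was the 6th highest gene of 3063 in phenformin and Ccl7 the 17th highest. The 1.5-fold limit lay close to several of these ratios, and other processing moved Ccl2 in phenformin and poly I:C, and Ccl7 in all 3 treated libraries, across it.

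The shares of cells moved the same way as the levels. At 2000 UMIs per cell, Ccl2 was found in 7.1, 10.8, 10.7 and 11.8% of macrophage gate cells and Ccl7 in 7.6, 9.09, 11 and 12.8%. Before thinning the shares were 17.5, 22.7, 27.6 and 27.9% for Ccl2 and 13.3, 16.6, 23.6 and 24% for Ccl7. T gate cells, the background for the ligands, had Ccl2 in 3.32, 3.42, 6.72 and 4.9% and Ccl7 in 2.52, 3.15, 7.23 and 5.22% before thinning. Before thinning the macrophage shares were above the T gate shares in every library, but the depths differed. Median UMIs per cell were 9337 to 12136 in the macrophage gate and 5063 to 7380 in the T gate. The T gate also held 113, 110, 278 and 249 cells that passed the macrophage gate.

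Ccl2 and Ccl7 transcripts were found in few cells, and in the same cell more often than the product of their shares. The 1% of cells with most UMIs of the gene held 57.7 to 61.6% of all Ccl2 UMIs and 49.8 to 64.2% of all Ccl7 UMIs, against 12.8 to 15.3% for Ccr2. Among macrophage gate cells thinned to one depth, 40.8, 41.6, 39.6 and 45.8% of those with Ccl2 also had Ccl7, compared with 5.06, 5.15, 7.52 and 8.42% of those without Ccl2. Cells with both were 5.37, 4.57, 3.62 and 3.57 times as frequent as the product of the single shares. For Ccl7 with Ccl12 that ratio was 4.26, 3.55, 2.61 and 2.66, and for Ccl2 with Ccl12 it was 3.24, 3.02, 2.46 and 2.6. All 3 ratios were higher in control and phenformin than in both libraries with poly I:C. Such a ratio is capped by the single shares, a cap that falls as they rise, and the shares of these genes were lowest in control. The share of Ccl2 cells that also had Ccl7 was lowest in poly I:C and highest in combination. These are descriptions of cells within 1 library each, with no test.

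As a ratio over control, Ccl2 and Ccl7 were higher in the C1q-low than in the C1q-high macrophage gate cells of each treated library. Ccl2 in C1q-low cells was at 31.8, 86.2, 108 and 72.4 CPM, and in C1q-high cells at 80.7, 115, 79.3 and 106 CPM. Ccl7 in C1q-low cells was at 19.2, 35.1, 61.1 and 37.2 CPM, and in C1q-high cells at 110, 154, 123 and 147 CPM. In the C1q-low cells poly I:C was the highest library for both genes. There 1 poly I:C cell, which also passed the monocyte gate, held 180 Ccl2 and 164 Ccl7 UMIs. The levels of these C1q-low cells without it were not computed. In the C1q-high cells poly I:C was, for Ccl2, at 79.3 against 80.7 CPM in control and, for Ccl7, at 1.12 of control, below phenformin and combination. Cells without Mmp12 had Ccl2 at 74.3, 135, 110 and 106 CPM and cells with Mmp12 at 38.4, 61.2, 56.4 and 82.7 CPM, lower in each library.

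Fibroblast gate cells had by far the highest levels of Ccl2 and Ccl7 of the 9 gates examined, from 12 to 41 cells per library. Ccl2 was at 931 CPM in control, 3525 in phenformin, 3074 in poly I:C and 3436 in combination, and Ccl7 at 650, 945, 1606 and 1263 CPM. The ratios of Ccl2 over control were 3.78 (3.3 to 4.36), 3.3 (2.9 to 3.77) and 3.69 (3.24 to 4.21), and those of Ccl7 were 1.45 (1.2 to 1.76), 2.47 (2.11 to 2.91) and 1.94 (1.65 to 2.29). In this gate 17.3%, 22.6% and 20.4% of all genes compared were at least 1.5-fold higher than in control, and 18.1%, 19.8% and 14.1% at least 1.5-fold lower, so a fold of this size was common there. A Ccl2 UMI was found in 86.7, 100, 85.4 and 85% of the fibroblast gate cells. Ccl2 was past the limit in all 3 treated libraries and Ccl7 in poly I:C and combination. Single cells weighed heavily, and 1 phenformin cell that passed both the T and the fibroblast gate held 399 of the 1067 Ccl2 UMIs. Without the cell of most UMIs of the gene in each library, another alternative chosen after the data were seen, the ratios were 3.57, 3.66 and 4.29 for Ccl2 and 1.31, 3.05 and 2.33 for Ccl7.

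Cells that passed the fibroblast gate alone were 13, 11, 41 and 37 per library, yet held 7.92, 14.5, 35.0 and 35.7% of the Ccl2 UMIs and 5.13, 6.29, 21.5 and 14.3% of the Ccl7 UMIs. Macrophage gate cells held 58.5, 69.4, 46.8 and 49.2% of Ccl2 and 68.7, 86.5, 68.2 and 70.3% of Ccl7. Whole-library levels of Ccl2, at 39, 75.6, 90.8 and 88.9 CPM, and of Ccl7, at 38.8, 59.8, 77.1 and 77.7 CPM, thus include a stromal part that differs between libraries. Since the cells were enriched for CD45, the number of fibroblasts captured is not their number in the tumour.

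**Figure D4:**
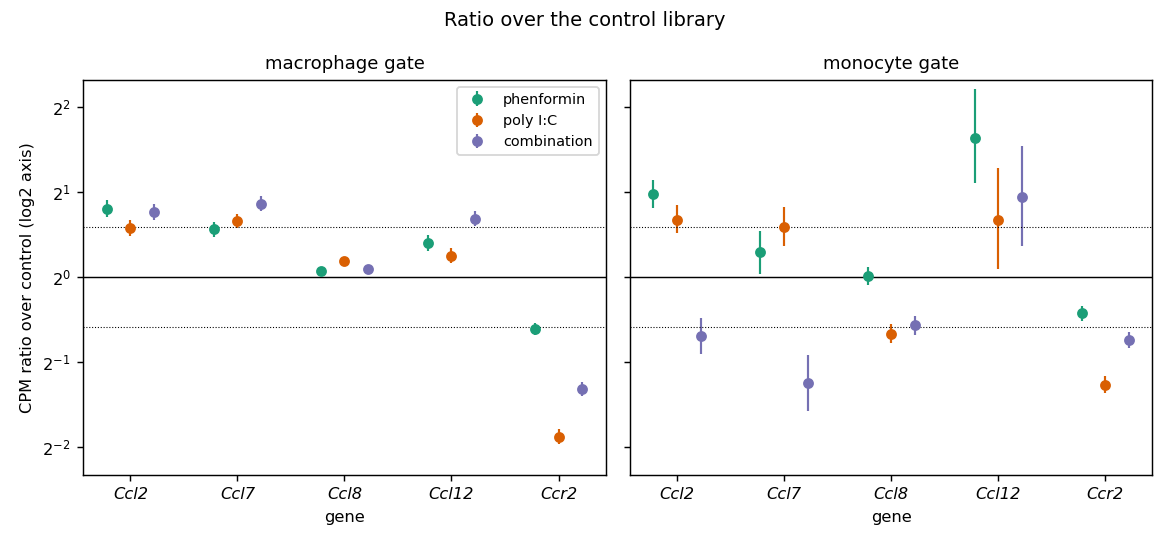
Ratio of CPM over control (log2 axis) in the macrophage and monocyte gates, with exact 95% intervals for counting error and dotted lines at 1.5-fold in either direction. Ccr2 lies below 1 in all 6 cases and the 4 ligands above 1 in the macrophage gate, with Ccl8 nearest to 1; the low combination values of Ccl2 and Ccl7 in the monocyte gate rest on 1 control cell.

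In the monocyte gate Ccl2 and Ccl7 depended on a single droplet. Ccl2 was at 47.1, 93, 75.6 and 29.2 CPM and Ccl7 at 25, 30.7, 37.9 and 10.6 CPM, which put the combination at 0.62 and 0.423 of control. A control cell that passed the monocyte and the B gate (Cd79a, Cd79b and Ms4a1), with 45390 UMIs in all, held 292 of the 448 Ccl2 UMIs and 166 of the 238 Ccl7 UMIs of the control gate. In control, phenformin, poly I:C and combination the 7 fibroblast markers summed to 1005, 3.42, 3.74 and 11 CPM in the B gate. In the monocyte gate they summed to 91.3, 3.13, 154 and 5.25 CPM. Whether this droplet held them was not tested. Without the cell of most UMIs in each library the ratios over control were 5.1, 3.76 and 1.54 for Ccl2 and 3.05, 3.34 and 1.2 for Ccl7, all above 1. As read with all cells, Ccl2 was past 1.5-fold in phenformin and poly I:C, where 1.02% and 3% of genes were as much higher; in combination neither gene reached the minimum for comparison.

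Ccl8 was the most evenly expressed ligand across treatments in the macrophage gate. Its level was 3374, 3555, 3845 and 3619 CPM, with ratios over control of 1.05 (1.04 to 1.06), 1.14 (1.13 to 1.15) and 1.07 (1.06 to 1.08), and it ranked 738th, 535th and 1011th from the highest of the genes compared. The direction depended on the processing, since Ccl8 was at 0.998 in phenformin as a mean over cells, and in combination at 0.97 with doubled gate minimums and at 0.852 with gates set after thinning. Macrophage gate cells held 91.5 to 96.0% of its UMIs in each library. The share of cells with Ccl8 differed more than the level: at 2000 UMIs per cell it was 47.5, 44.4, 59.5 and 60.3%, higher in both libraries with poly I:C. Unthinned, it was 68.8, 72.1, 79.3 and 78.8%.

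Within subdivisions by C1q the order of the libraries changed. In C1q-high cells Ccl8 was at 5869, 6193, 5096 and 4526 CPM, so poly I:C was at 0.868 and combination at 0.771 of control. In C1q-low cells it was at 471, 323, 183 and 245 CPM, with ratios of 0.686, 0.39 and 0.52. Poly I:C and combination were thus below control in both strata although slightly above it in the whole gate, where C1q-high cells made up more of the cells. The cut on raw C1q UMIs may take unlike cells in each library, and its part in these ratios was not tested. Ccl8 was higher in cells without Ly6c2 (4048, 4529, 5244 and 4426 CPM) than in cells with it (2542, 2415, 2715 and 2568 CPM).

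Ccl8 was also widely found in cells of other gates. Before thinning, 42.1, 48.6, 47.7 and 44.5% of T gate cells and 38.7, 52.2, 48.4 and 47.7% of tumour epithelial gate cells had a Ccl8 UMI, against a median of 6646 UMIs in control T gate cells and 24402 in control tumour epithelial gate cells. At 2000 UMIs the shares were 19, 20.6, 25.4 and 25.6% and 5.26, 8.4, 7.46 and 5.94%. The level in the T gate was 441, 395, 1094 and 660 CPM, and poly I:C was past 1.5-fold there, as were 5.58% of genes. In cells that passed the T gate alone it was 88.3, 92.5, 146 and 162 CPM, far below the macrophage gate. Cells that passed the T and the macrophage gate and no other made up 1.43, 1.58, 3.28 and 2.65% of all cells and held 6.26, 4.1, 13.1 and 9.75% of all Ccl8 UMIs, most in poly I:C as in the T gate. Tumour epithelial gate cells had 21.9 to 30.6 CPM. The like shares before thinning came from unlike depths, and at 2000 UMIs the T gate share was the higher in every library. A Ccl8 UMI in a T or tumour epithelial gate cell is not read as expression here, and its source was not tested. In the monocyte gate Ccl8 was at 151, 153, 95.5 and 102 CPM, and poly I:C, at 0.632 of control, was past 1.5-fold, as were 8.22% of genes. It was not past it with TMM scaling (0.695) or without the cell of most Ccl8 UMIs in each library (0.728), and with gates set after thinning it was at 1.22.

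The fibroblast gate had Ccl8 at 1410, 330, 2187 and 1600 CPM, but in control 286 of its 386 UMIs came from 1 cell that also passed the T gate. In cells that passed the fibroblast gate alone the levels were 417, 376, 2187 and 1166 CPM. Without the cell of most UMIs in each library the ratios over control were 0.62, 4.36 and 2.75, from 0.234, 1.55 and 1.13 with all cells.

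Ccl12 followed Ccl2 and Ccl7 in direction. In the macrophage gate it was at 68.5, 90.5, 81.7 and 111 CPM, with ratios over control of 1.32 (1.24 to 1.41), 1.19 (1.12 to 1.27) and 1.61 (1.52 to 1.72), lowest in control and highest in combination. Its share of macrophage gate cells at 2000 UMIs was 6.95, 9.81, 10.2 and 13.1%, and 18.2, 24, 27.3 and 30.5% unthinned, against 2.46 to 5.97% of T gate cells. Beyond the product of the single treatments the combination differed by a log2 value of 0.03 (-0.08 to 0.15) for Ccl12, against -0.62 (-0.73 to -0.50) for Ccl2, -0.36 (-0.47 to -0.25) for Ccl7 and -0.16 (-0.18 to -0.15) for Ccl8. For Ccl12 the 2 separate ratios multiplied to the combination within counting error, while for the other 3 ligands the combination was below their product.

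Like Ccl8, Ccl12 was found in macrophage gate cells, which held 91.1 to 95.6% of its UMIs, and was nearly absent from fibroblasts, with 1, 0, 7 and 1 UMIs in the fibroblast gate. C1q-high cells had Ccl12 at 119, 150, 106 and 135 CPM and C1q-low cells at 9.71, 17.2, 12 and 19.6 CPM. Cells without Ly6c2 had 86.1, 114, 109 and 126 CPM and cells with it 46.7, 63.3, 59.6 and 90 CPM. Ccl12 was thus higher in the C1q-high than in the C1q-low cells of each library, the reverse of Ccr2. At 2000 UMIs per cell, macrophage gate cells with both Ccl12 and Ccr2 were 0.5, 0.632, 0.419 and 0.857 times as frequent as the product of the single shares, from 16, 22, 8 and 33 cells, and cells with Ccl8 and Ccr2 were 0.728, 0.754, 0.867 and 0.832 times as frequent. Cells with Ccl2 and Ccr2 were 1.04, 1.56, 1.24 and 1.21 times as frequent, so Ccl2 was not found apart from Ccr2.

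**Figure D5:**
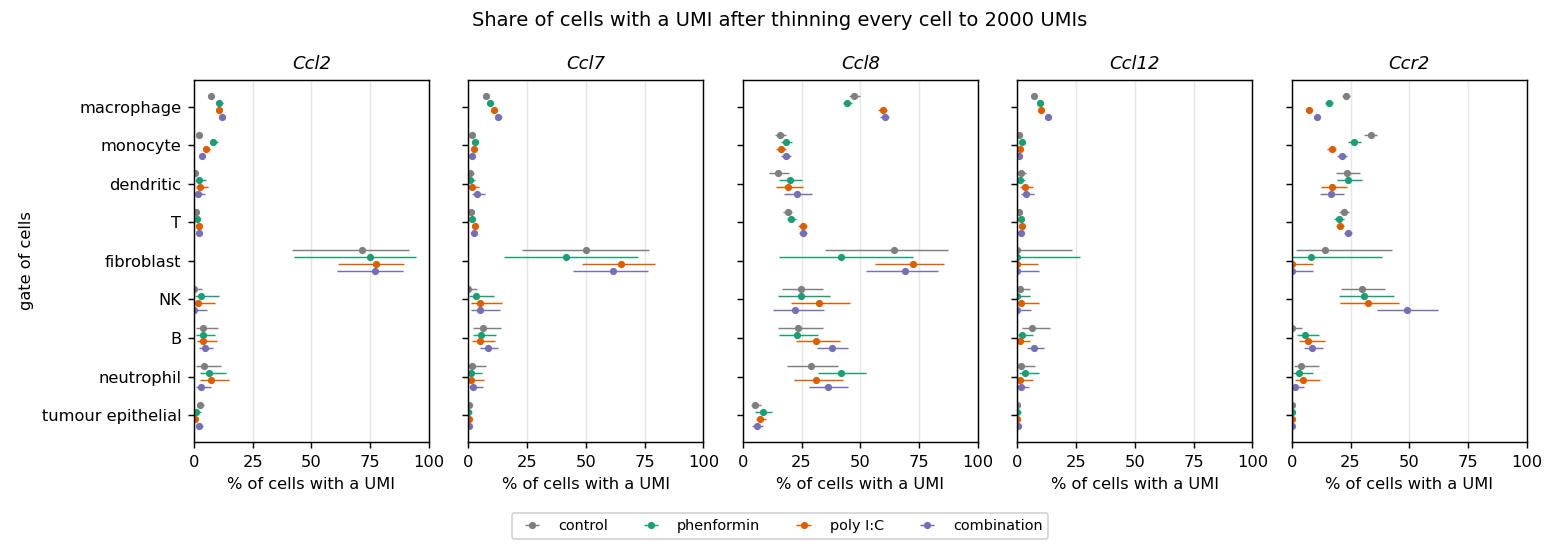
Percent of cells of each gate with at least 1 UMI of the gene after thinning every cell to 2000 UMIs, with exact binomial 95% intervals for counting error. In the macrophage gate Ccr2 is lower and Ccl2, Ccl7 and Ccl12 are higher in the 3 treated libraries than in control, and Ccl8 reaches 59.5 and 60.3% with poly I:C.

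Genes with the most similar pattern were sought over the 20 sums of 5 gates and 4 libraries, by Pearson's r of log2(CPM + 5) among 5062 genes. These sums share their libraries, and the 4 fibroblast sums stand apart, so r is a description. Nearest to Ccl2 were Wipi1 (0.977), Cped1 (0.973) and Spon1 (0.968), and nearest to Ccl7 were Pdpn (0.984), which encodes podoplanin, Pmp22 (0.978) and Tspan4 (0.977). Nearest to Ccl8 were Sepp1 (0.884), Dhrs3 (0.875) and Vcam1 (0.858), and nearest to Ccl12 were Pla2g2d (0.947), Tlr12 (0.946) and H2-M2 (0.933). Ppp2r5a (0.985), Me2 (0.976) and Uqcrfs1 (0.976) were nearest to Ccr2. Ccl2 and Ccl7 had an r of 0.962 with each other, and Ccl8 and Ccl12 had 0.639.

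Other genes of the same axis were read from lists in the macrophage gate. Of 7 other receptors and scavengers, 3 reached the minimum for comparison. Ccr1, a receptor of several inflammatory chemokines, was at 261, 304, 229 and 162 CPM, and its combination value, at 0.622 of control, was the only one of the list past 1.5-fold. Ccrl2, an atypical receptor, was at 205, 237, 230 and 293 CPM. Ccr3, Ccr8, Ackr1 and Ackr2 were under 2 CPM in every library, so the receptor on which mouse Ccl8 acts was barely detected in these cells. In poly I:C the ratios of Ccr1 and Ccrl2 over control were 0.878 and 1.12, against 0.273 for Ccr2.

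Mature macrophage genes were higher in the libraries with poly I:C. Of the compared members of that list, 1 of 8 in phenformin, 7 of 8 in poly I:C and 8 of 9 in combination were at least 1.5-fold higher than control and none was lower, with median log2 ratios of 0.17, 0.91 and 1.07 against -0.02, -0.08 and -0.03 over all genes compared. Apoe, which encodes apolipoprotein E, was at 2236, 4115, 11551 and 8128 CPM. Over all genes compared, 0.49% were as much higher and 0.261% as much lower in phenformin, 3.31% and 4.3% in poly I:C, and 4.3% and 5.03% in combination. Of the classical monocyte genes 8 were compared, with 2 higher and 0 lower in phenformin, 2 higher and 3 lower in poly I:C and 1 higher and 3 lower in combination. F13a1, a coagulation factor gene, was at 2.32 of control in phenformin, Thbs1 (thrombospondin 1) at 0.473 in poly I:C and Fn1 (fibronectin) at 0.296 in combination, while Ly6c2 itself was at 396, 318, 411 and 453 CPM. The part of these genes in the level of Ccr2 was not tested.

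Further lists are read against the same shares of all genes. Of the NF-kB targets compared, which include other inducible chemokines, 0 of 6 in phenformin, 1 of 7 in poly I:C and 2 of 7 in combination were past 1.5-fold, among them Cxcl1 at 3.44 of control in poly I:C (25.7, 47.4, 88.3 and 29 CPM, under the minimum for comparison in phenformin and combination), and Cxcl2 at 0.647 and Ccl4 at 1.52 in combination. Of 6 interferon-stimulated genes, 0 differed in phenformin, Irf7 was higher and Rsad2 lower in poly I:C (1.7 and 0.641), and 3 were higher and 1 lower in combination, with Irf7 at 2.59 and Cxcl10 at 1.7. Of the colony-stimulating factor genes, which govern macrophage survival, none of 3 was past the fold in any treated library, and Csf1r was within 0.97 to 1.1 of control. Csf1r is among the genes that define this gate, so its level there was in part set by the gate. Of 7 genes induced by tissue dissociation, Jun was higher in poly I:C (1.64) and none of the other comparisons with control passed the fold.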

How the data were processed

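Single-cell RNA libraries of CD45-enriched tumour cells, 1 for each of 4 treatments, were read from the deposited matrices, which hold raw UMI counts per gene and barcode that the authors made with Cell Ranger 3.1.0; the genome builds listed, per the submitters' processing notes, are mm10 and GRCm38. The aligner's settings, not given in the sources used here, are unknown. The members and lists were chosen with earlier results of these data known.

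Barcodes with 200 or more genes and less than 20% of UMIs from mitochondrial genes were used and gated on raw UMIs (Python 3.11.15, numpy 2.4.6, scipy 1.17.1, pandas 2.3.3, matplotlib 3.10.9). Besides the 5 gates, 4 were added: NK, B, neutrophil and tumour epithelial cells. Counts were summed per gate and library and scaled to CPM, with exact Poisson intervals; shares have exact binomial intervals, and ratios the exact interval conditional on their total. Where a gate held 0 UMIs, 3 counts served as the floor. The 5 comparisons were each treatment over control and the combination over each single treatment. A gene was called past the fold at 1.5-fold with at least 50 CPM and 30 UMIs in the higher library, a step that was tested on simulated data. For the results flagged for a closer look the minimum of 50 CPM was not applied. Cells were thinned to 2000 UMIs with a fixed seed for shares at one depth. No doublet caller was run; cells that passed several gates, and the 2% deepest cells, were left out as alternatives, as was TMM scaling tried (edgeR 4.0.16, R 4.3.3). Named are the 5 members, the genes with the most similar pattern for each (the 5 highest were taken, pseudocount 5 CPM) and up to 3 genes per list with the largest ratio. Ly6c2, Ccr3, Ccr8, Ackr1 and Ackr2 in the macrophage gate were named after their values were seen. UMIs of cells of 1 library are not replicates, so no test between treatments was made. Of the other receptors, 1 gene is not reported here.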

Additional observations from a re-analysis of the deposited data

Results flagged for a closer look

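With 1 library per treatment, the results singled out here are those where a member moved at least 1.5-fold in opposite directions in 2 gates under the same comparison. None of these differences was tested. Each is given with all cells and then without the cell of most UMIs of the gene in each library. The minimum of 50 CPM in the higher library, used in the comparisons above, was not applied here. Below it lie Ccl12 in the monocyte, T and dendritic gates, Ccl7 in the monocyte and T gates, and Ccl2 in the dendritic and T gates. Ccl2 in the monocyte gate lies below it for combination over control. No share of all genes is given for the flagged values in this section.

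For Ccl2 the combination over control was 0.62 in the monocyte gate and 1.54 without its highest cells. The other gates were at 1.7 (macrophage, 1.76 without the highest cells), 4.75 (dendritic, 3.48), 2.22 (T, 2.44) and 3.69 (fibroblast, 4.29). For Ccl7 the same comparison gave 0.423 in the monocyte gate, 1.2 without the highest cells, against 1.82 (macrophage, 1.84), 3.96 (dendritic, 4.56), 2.18 (T, 2.47) and 1.94 (fibroblast, 2.33). In control, phenformin, poly I:C and combination the 8 macrophage markers summed to 929, 957, 3215 and 4052 CPM in the dendritic gate. In the T gate they summed to 1130, 1341, 5438 and 3368 CPM. The 7 fibroblast markers summed to 69, 153, 318 and 202 CPM in the T gate and to 76.8, 42.1, 162 and 87.5 CPM in the macrophage gate. Of the dendritic gate cells 60.3 to 75.2% passed another of the 5 gates. The T gate cells with most Ccl2 and most Ccl7 UMIs also passed the fibroblast gate, except in poly I:C, where they passed the macrophage gate. In phenformin that cell held 399 of the 590 Ccl2 UMIs. The part of these cells and markers in the ratios was not tested. Leaving out the highest cells, among them a control cell that passed the monocyte and B gates, turned the monocyte gate value above 1 in both genes.

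Against phenformin, the combination had Ccl2 at 2.31 in the dendritic gate (1.8) and 0.314 in the monocyte gate (0.302), and Ccl7 at 5.02 in the dendritic gate (8.08) and 1.63 in the T gate (1.79) against 0.345 in the monocyte gate (0.392). Against poly I:C, Ccl7 was at 1.74 in the dendritic gate (1.49) and 0.28 in the monocyte gate (0.358). The dendritic gate values rest on 40 to 133 Ccl7 UMIs per library, and the highest cell in phenformin, poly I:C and combination also passed the macrophage gate.

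Ccl8 in poly I:C over control was 2.48 in the T gate (2.54) and 1.55 in the fibroblast gate (4.36) against 0.632 in the monocyte gate (0.728), and in combination over poly I:C it was 1.5 in the dendritic gate (1.54) against 0.603 in the T gate (0.6). Ccl12 in phenformin over control was 3.12 in the monocyte gate (3.42) and 1.52 in the T gate (1.43) against 0.493 in the dendritic gate (0.426), and in combination over phenformin it was 3.56 in the dendritic gate (4.92) against 0.617 in the monocyte gate (0.521). These Ccl12 values come from 25 to 64 UMIs per library in the dendritic gate and 37 to 128 in the monocyte gate. In both the T and the monocyte gate the highest cells of these 2 ligands mostly passed the macrophage gate as well.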

How the results depend on the processing

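Each of 18 ratios over control (the 5 genes in the macrophage gate, Ccr2 also in the monocyte gate) was recomputed under 11 alternatives, of which 2 were chosen after the data were seen, as was the use of all 11 for Ccr2 in the macrophage gate. Of these 198 values 139 moved by less than counting error, 59 moved by more and 0 reversed a ratio past 1.5-fold. Ccl8 in the monocyte gate, also recomputed after the data were seen, was left out of this count. Its poly I:C level, past 1.5-fold, went from below to above control with gates set after thinning. Ccl2 and Ccl7 in the monocyte gate, outside the count too, turned above control in combination without the highest cells. In the 5 genes the ranges in phenformin, poly I:C and combination were 1.41 to 2.05, 1.22 to 1.71 and 1.63 to 1.8 for Ccl2, 1.13 to 1.58, 1.21 to 1.68 and 1.4 to 1.84 for Ccl7, 0.998 to 1.1, 1.01 to 1.21 and 0.852 to 1.08 for Ccl8, 1.26 to 1.46, 1.11 to 1.38 and 1.5 to 1.83 for Ccl12, and for Ccr2 0.606 to 0.702, 0.222 to 0.291 and 0.356 to 0.404 in the macrophage gate and 0.687 to 0.815, 0.265 to 0.457 and 0.45 to 0.632 in the monocyte gate. Ccr2 kept its side of 1.5-fold under all 11 alternatives in each gate and treatment except in macrophage gate cells of phenformin, where 8 of 11 stayed past it; the cause of these moves was not tested. In that gate doubled gate minimums gave 0.702 in phenformin, thinning 0.606 in phenformin and 0.232 in poly I:C, gates set after thinning 0.237 and TMM 0.291 in poly I:C, cells of 1 gate only 0.222 in poly I:C and 0.357 in combination, and leaving out T gate cells 0.226 and 0.356.

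With cells of 1 gate only, Ccl2 was at 1.41 in phenformin and 1.22 in poly I:C, Ccl7 at 1.39, 1.41 and 1.7 in phenformin, poly I:C and combination, Ccl8 at 1.09 in phenformin and 1.02 in combination, and Ccr2 in the monocyte gate, as in the rest of this paragraph, at 0.687, 0.266 and 0.45. The stricter cell filter (500 genes, 10% mitochondrial) gave Ccl2 at 1.4 in poly I:C. Doubled gate minimums gave Ccl7 at 1.58 in phenformin, Ccl8 at 1.02, 1.04 and 0.97, Ccl12 at 1.11 in poly I:C and 1.5 in combination, and Ccr2 at 0.371 in poly I:C and 0.548 in combination. Thinning to 2000 UMIs gave Ccl2 at 2.05 in phenformin and 1.71 in poly I:C, Ccl7 at 1.24, 1.46 and 1.68, Ccl8 at 1.01 in phenformin and 1.17 in poly I:C, and Ccl12 at 1.38 in poly I:C and 1.83 in combination. With gates set after thinning, Ccl7 was at 1.13, 1.21 and 1.4, Ccl8 at 1.03, 1.01 and 0.852, Ccl12 at 1.46 in phenformin, and Ccr2 at 0.815 in phenformin and 0.533 in combination. TMM gave Ccl7 at 1.68 in poly I:C, Ccl8 at 1.1 in phenformin and 1.21 in poly I:C, and Ccr2 at 0.457 in poly I:C. The mean over cells gave Ccl2 at 1.94 in phenformin and 1.6 in poly I:C, Ccl7 at 1.27 in phenformin, and Ccl8 at 0.998 in phenformin and 1.17 in poly I:C. Ccl8 in the monocyte gate, at 0.632 in poly I:C, was at 1.22 with gates set after thinning. Without the 2% deepest cells Ccl8 was at 1.15 in poly I:C, and without T gate cells Ccr2 was at 0.689, 0.265 and 0.456.

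TMM moved all log2 ratios over control by 0.06, 0.09 and 0.01 in the macrophage gate and by 0.09, 0.14 and 0.07 in the monocyte gate. In poly I:C over control it changed the genes past 1.5-fold from 104 higher and 135 lower to 139 and 83 in the macrophage gate, and from 99 and 271 to 174 and 116 in the monocyte gate. With no minimum level, 17, 24.4 and 22.4% of genes in the macrophage gate were past 1.5-fold in either direction, against 0.751, 7.62 and 9.33%. No paired analysis was possible because each treatment has 1 library, and for the same reason no library could be left out.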

Other observations

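Ccl2 and Ccl7 had isolated high values in small gates that no comparison used. The NK gate had Ccl2 at 3.52, 136, 37.5 and 5.35 CPM and Ccl8 at 259, 2803, 832 and 161 CPM in control, phenformin, poly I:C and combination, while at 2000 UMIs per cell the shares of NK gate cells with Ccl2 were 0, 3.08, 1.69 and 0%. In phenformin 49 of the 50 Ccl2 UMIs lay in 1 cell that also passed the macrophage gate, without which the level was 2.84 CPM, and the 8 macrophage markers in the NK gate summed to 866, 5609, 5967 and 1772 CPM. The B gate had Ccl8 at 917, 1137, 1773 and 1929 CPM, and 98% of its control Ccl2 UMIs lay in the 1 cell that also passed the monocyte gate. The neutrophil gate, with S100a8 and S100a9, had Ccr2 at 28.1, 34.4, 40.1 and 18 CPM from 12 to 23 UMIs per library.

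Dendritic gate cells with Cd209a, a marker of monocyte-derived and type 2 dendritic cells, had Ccr2 at 168, 303, 193 and 144 CPM, from 32, 41, 9 and 20 cells. Phenformin was at 1.81 (1.33 to 2.47) of control there, the only subdivision of the dendritic gate whose counting interval of phenformin over control lay above 1.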
